A study of Saccharomyces cerevisiae with 6 samples.

Results

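The genes that fold, modify, translocate and discard proteins of the endoplasmic reticulum (ER) were followed in yeast cells that overproduced Yra1, a nuclear protein that binds RNA and helps to export mRNA. They are the 37 genes of a fixed list, each found through the gene symbol that the array platform gives to its probe set, out of 5449 genes with a named probe set. Every one of the 37 symbols was carried by a single probe set, and no gene was dropped by a filter on dim signals. The arrays were 1-colour Affymetrix Yeast Genome 2.0 arrays, hybridised with total RNA of the haploid budding yeast strain W303-1A. In the GAL-YRA1Δi group (labelled YRA1∆i) the cells carried the plasmid pRS413::GAL-YRA1Δi, on which the GAL1 promoter drives YRA1 without its intron. In the GAL-YRA1 group (labelled WT) the same centromeric, HIS3-marked plasmid held YRA1 with its intron, so that these cells too had YRA1 under the GAL1 promoter. All cells were of mating type a, with the ade2-1 and can1-100 alleles, trp1-1 and ura3-1, and in addition mutant alleles of his3 and leu2. They were grown in raffinose and given 2% galactose for 4 hours, and each group had 3 biological replicates. No empty-vector or glucose culture is part of the 6 arrays.

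Secretory proteins of yeast enter the ER through the Sec61 channel, where oligosaccharyltransferase adds a glycan to asparagines, glucosidases and mannosidases trim it, and the Hsp70 Kar2 with its partners and the protein disulfide isomerases fold the chain. Chains that fail to fold are recognised, moved back to the cytosol, ubiquitinated by the Hrd1 ligase and degraded by the proteasome, a route called ER-associated degradation (ERAD). When unfolded chains gather in the ER, the kinase and nuclease Ire1 cuts the HAC1 mRNA, the cut mRNA is religated and translated, and the transcription factor Hac1 turns on the genes of the unfolded protein response (UPR), which include many chaperone and ERAD genes. Some translocon and oligosaccharyltransferase genes are known to answer to the UPR as well, so the groups compared here are not a strict division into targets and non-targets. Total RNA arrays give a single signal for HAC1, and how much of its mRNA was spliced was not measured.

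Values are log2 RMA signals (background-corrected, made comparable between arrays and summarised per probe set), and a change is GAL-YRA1Δi minus GAL-YRA1. The overexpressed gene was as the labels state. YRA1 signal was 14.48, 14.62 and 14.50 on the GAL-YRA1Δi arrays, against 13.35, 13.22 and 13.44 on the GAL-YRA1 arrays, a change of 1.20 (limma adjusted p = 0.0102, or 0.0259 with replicate number as a block). Of the markers of mating type a, MFA1, MFA2, STE2 and STE6 gave signals between 11.77 and 14.09 on all arrays, while BAR1 lay between 3.14 and 3.47, under the level of 4.70 that 95% of the annotated probe sets matching no Saccharomyces cerevisiae gene did not pass. The 4 markers of mating type alpha lay between 6.35 and 10.48. The replicate 2 arrays of the 2 groups stood apart from the other 4. The SD of the difference between arrays over all tested probe sets was 0.23 for the replicate 2 arrays of the 2 groups, but 0.35 and 0.36 between GAL-YRA1Δi replicate 2 and the others of its group and 0.33 and 0.34 between GAL-YRA1 replicate 2 and the others of its group. The smallest such SD was 0.11, between replicates 1 and 3 of the GAL-YRA1Δi group.

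Most ER genes had slightly less signal in GAL-YRA1Δi cells, and no single gene passed the test over all genes with the 6 arrays weighted alike. The change was negative for 34 of the 37 genes, while 47.6% of all tested probe sets had a negative change. Changes ran from -0.44 for CNE1 to 0.02 for SSS1, with a median of -0.11, against a median of 0.01 and quartiles of -0.10 and 0.12 over all tested probe sets. The folding and degradation genes accounted for the larger values, with signals down to 1.36-fold lower. The 7 translocon genes had a median of -0.01. The 5 oligosaccharyltransferase genes were all slightly negative, with a median of -0.10. None of the 37 changes reached 1.5-fold in either direction.

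At the threshold of the study's methods (adjusted p below 0.01 and at least 1.5-fold in limma) 0 of the 37 genes and 0% of all tested probe sets passed. With the adjusted p limit relaxed to 0.05 and the fold limit kept, 0 of the 37 and 0.4% of all tested probe sets passed. The lowest adjusted p of the 37 was 0.108. With arrays weighted by their quality, USA1 (0.00653), ROT2 (0.0165), CNE1 (0.0244), IRE1 (0.0294) and JEM1 (0.0490) had an adjusted p below 0.05 in limma, each with a change under 1.5-fold. The share of all tested probe sets at that level with array weights is not given here, so these genes are not set against a background. At an unadjusted p below 0.05 in limma, 11 genes (29.7%) were lower in GAL-YRA1Δi cells, where 6.31% of all tested probe sets were lower, and 0 genes were higher, where 9.79% of all tested probe sets were higher. For 12 genes (32.4%) every GAL-YRA1Δi array lay below every GAL-YRA1 array, against 8.57% of all tested probe sets, and for 0 genes every GAL-YRA1Δi array lay above, against 13.6%. These shares describe a list that was chosen with earlier results of the same arrays known, and members of a pathway are not independent of each other. With replicate number as a block, 11 genes were lower at an unadjusted p below 0.05, against a share of 10.8% over all tested probe sets.

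**Figure D1:**
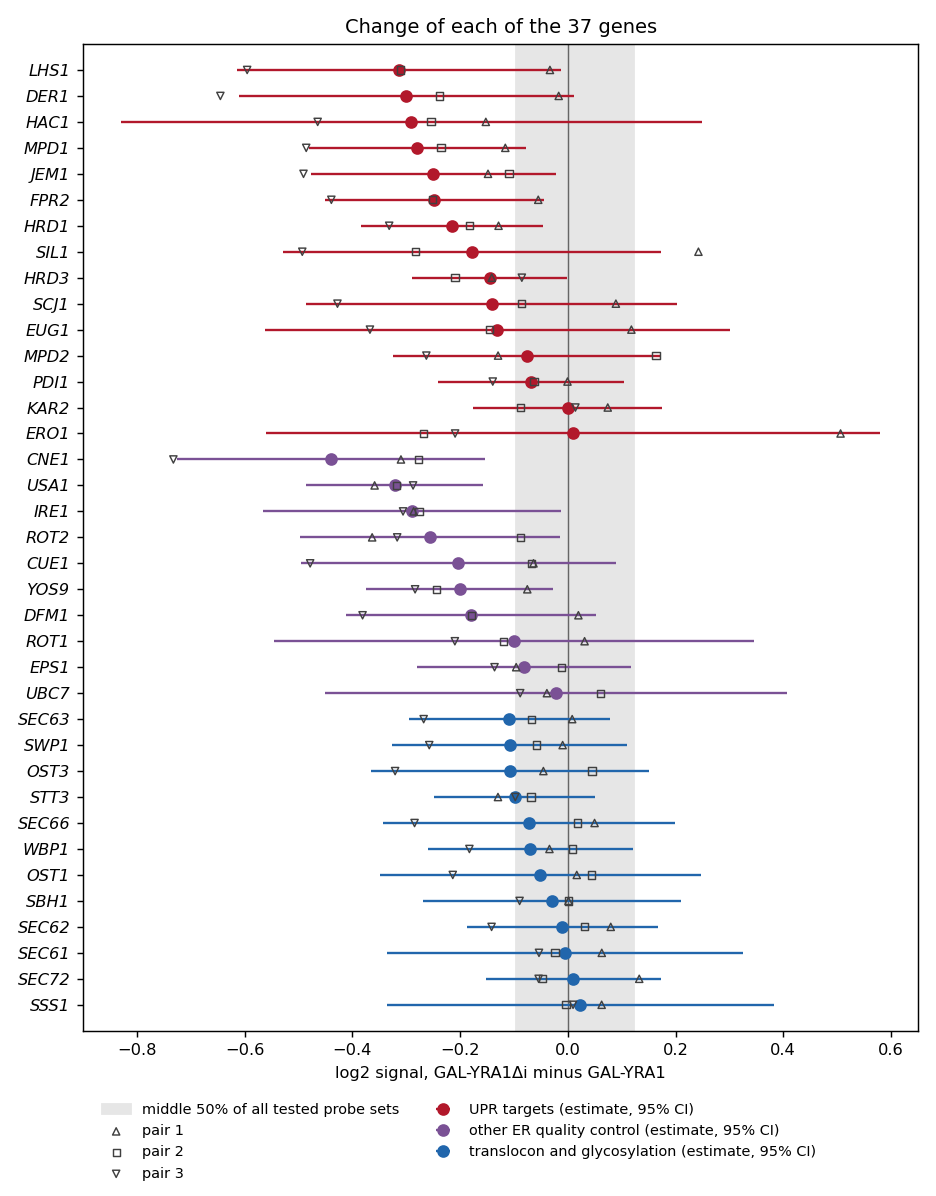
Change of each of the 37 genes on the log2 scale, GAL-YRA1Δi minus GAL-YRA1, with filled points for the limma estimate, lines for its 95% confidence interval and open symbols for the difference between same-numbered arrays (pair 1, 2 or 3). Colours mark the UPR targets, the other ER quality control genes and the genes of translocon and glycosylation, and the grey band spans -0.10 to 0.12, the quartiles of all tested probe sets; most points of the first 2 sets lie left of the band, and those of the third lie in or beside it.

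The sensor and the transcription factor of the UPR came first. IRE1, the ER membrane kinase and nuclease that starts the response, had a signal of 10.29, 10.03 and 10.27 in GAL-YRA1Δi replicates 1 to 3, against 10.58, 10.30 and 10.57 in GAL-YRA1 replicates 1 to 3. All 3 GAL-YRA1Δi values lay below the lowest GAL-YRA1 value, by a small margin, and replicate 2 was the lowest of its group in both. The change was -0.29 (SE 0.11, 95% confidence interval -0.57 to -0.01, adjusted p = 0.290 in limma), and it was nearly alike in the pairs, at -0.29, -0.28 and -0.31. With both replicate 2 arrays left out the adjusted p was 0.034. HAC1 signal was 14.05, 13.45 and 13.90 in GAL-YRA1Δi cells, against 14.20, 13.71 and 14.37 in GAL-YRA1 cells. Its groups overlapped because replicate 2 was the lowest in each, while within each pair the GAL-YRA1Δi array was the lower (-0.15, -0.25 and -0.46), a mean change of -0.29 (adjusted p = 0.618, or 0.118 with the replicate block). PTC2, a phosphatase gene outside the 37 whose product dephosphorylates Ire1, was at 11.69, 11.60 and 11.68 in GAL-YRA1Δi cells, against 12.16, 12.01 and 12.11 in GAL-YRA1 cells. That difference of -0.44 was almost the same in every pair (adjusted p = 0.0676, which became 0.0407 under the replicate block). The gene was named because its p was among the 2 lowest of its pathway list.

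In the Hsp70 system of the ER lumen the groups overlapped for KAR2, SCJ1 and SIL1 and did not overlap for LHS1 and JEM1. KAR2, the ER Hsp70 known as BiP in mammals and the usual marker of the UPR, had a signal of 14.10, 13.91 and 14.05 in GAL-YRA1Δi cells, against 14.03, 14.00 and 14.03 in GAL-YRA1 cells. The GAL-YRA1Δi values lay on both sides of the GAL-YRA1 values. The mean difference was -4.4e-05, with a 95% confidence interval from -0.18 to 0.18 (adjusted p = 1.00). LHS1, the Hsp70-related exchange factor of Kar2, was at 11.11, 10.84 and 10.88 in GAL-YRA1Δi cells, against 11.15, 11.15 and 11.47 in GAL-YRA1 cells. Its groups did not overlap, but the arrays of pair 1 differed by only -0.03, against -0.31 and -0.60 in pairs 2 and 3 (change -0.31, SE 0.12, adjusted p = 0.292). JEM1, which encodes a J-domain partner of Kar2 in the ER membrane, gave 10.09, 10.03 and 9.93 in GAL-YRA1Δi cells, against 10.24, 10.14 and 10.42 in GAL-YRA1 cells (change -0.25, SE 0.09, adjusted p = 0.270). SCJ1, the lumenal J-domain partner, differed by 0.09, -0.09 and -0.43 in the pairs as numbered in the titles. The exchange factor gene SIL1 differed by 0.24, -0.28 and -0.49. The mean differences of these 2 genes, -0.14 and -0.18, were below or near the spread of their replicates (SD 0.18 and 0.13 in GAL-YRA1Δi cells, 0.22 and 0.25 in GAL-YRA1 cells). The arrays do not tell pair 1 from pair 3. The signs in the pairs of SCJ1 and SIL1, and the small pair 1 value of LHS1, thus rest on the titles.

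Among the disulfide and prolyl isomerases the values of the core enzymes overlapped between groups and those of MPD1 and FPR2 did not. PDI1, the essential disulfide isomerase, was at 14.12, 13.98 and 14.03 in GAL-YRA1Δi cells, against 14.12, 14.04 and 14.16 in GAL-YRA1 cells (change -0.07, 95% confidence interval -0.24 to 0.10, adjusted p = 0.718). ERO1, the oxidase that recharges Pdi1, had the largest SD of the 37 (0.39 in GAL-YRA1Δi cells), with 12.98, 12.24 and 12.81 in GAL-YRA1Δi cells, against 12.47, 12.51 and 13.02 in GAL-YRA1 cells. Its pairs differed by 0.51, -0.27 and -0.21, and the interval of its mean change was -0.56 to 0.58. MPD1, a Pdi1 relative that can replace it when overproduced, was at 11.55, 11.51 and 11.35 in GAL-YRA1Δi cells, against 11.67, 11.74 and 11.84 in GAL-YRA1 cells, with no overlap (change -0.28, SE 0.08, adjusted p = 0.191). FPR2, an FK506-binding prolyl isomerase, was at 12.44, 12.32 and 12.24 in GAL-YRA1Δi cells, against 12.50, 12.57 and 12.68 in GAL-YRA1 cells, again with no overlap (change -0.25, SE 0.08, adjusted p = 0.237). The other relatives of Pdi1 overlapped between groups, with mean changes of -0.13 for EUG1, -0.08 for MPD2 and -0.08 for the membrane-bound EPS1.

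The 6 arrays are bulk samples, so that a lower signal in all cells and a lower signal in part of the cells cannot be told apart.

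Genes for glycoprotein folding held the largest difference. CNE1, the yeast calnexin relative, which binds glycoproteins in the ER, had a signal of 10.35, 10.18 and 10.10 in GAL-YRA1Δi cells, against 10.66, 10.46 and 10.83 in GAL-YRA1 cells. No GAL-YRA1Δi array reached the lowest GAL-YRA1 array. The change was -0.44, or 1.36-fold lower (SE 0.12, 95% confidence interval -0.73 to -0.15, adjusted p = 0.159), with -0.31, -0.28 and -0.73 in the pairs. ROT2, the catalytic subunit of glucosidase II, which removes glucoses from the attached glycan, was at 11.70, 11.66 and 11.71 in GAL-YRA1Δi cells, against 12.07, 11.74 and 12.03 in GAL-YRA1 cells. The GAL-YRA1Δi replicates were tight, and GAL-YRA1 replicate 2 lay close to them (change -0.26, SE 0.10, adjusted p = 0.284). With both replicate 2 arrays left out the change of ROT2 was -0.34 (adjusted p = 0.028). The chaperone gene ROT1 differed by -0.10, less than its SD of 0.28 in GAL-YRA1Δi cells and 0.25 in GAL-YRA1 cells.

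The ERAD genes lay lower through most of the Hrd1 complex. USA1, the scaffold that links Der1 to Hrd1, had the smallest p of the 37. It was at 9.83, 9.93 and 9.84 in GAL-YRA1Δi cells, against 10.19, 10.25 and 10.12 in GAL-YRA1 cells, a gap wider than the spread within either group. The change was -0.32, or 1.25-fold lower (SE 0.07, 95% confidence interval -0.49 to -0.16), with -0.36, -0.32 and -0.29 in the pairs. Its adjusted p was 0.108, and 0.0599 with the replicate block. HRD1, the ubiquitin ligase itself, was at 10.99, 10.99 and 10.83 in GAL-YRA1Δi cells, against 11.12, 11.17 and 11.16 in GAL-YRA1 cells (change -0.21, SE 0.07, adjusted p = 0.222). HRD3, the Hrd1 partner that receives substrates, was at 10.30, 10.31 and 10.35 in GAL-YRA1Δi cells, against 10.44, 10.51 and 10.43 in GAL-YRA1 cells (change -0.15, SE 0.06, adjusted p = 0.307). For these 2 genes too, the groups did not overlap.

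YOS9, the lectin that reads the trimmed glycan, was at 9.99, 9.995 and 9.96 in GAL-YRA1Δi cells, against 10.07, 10.24 and 10.24 in GAL-YRA1 cells, with no overlap (change -0.20, SE 0.07, adjusted p = 0.255). DER1, a derlin of the same complex, was at 11.39, 11.43 and 11.17 in GAL-YRA1Δi cells, against 11.41, 11.67 and 11.82 in GAL-YRA1 cells. Here GAL-YRA1 replicate 1 fell among the GAL-YRA1Δi arrays, the pairs differed by -0.02, -0.24 and -0.65, and the interval of the mean change of -0.30 just included 0 (-0.61 to 0.01). The derlin relative DFM1 (-0.18) and CUE1 (-0.20), the membrane anchor of Ubc7, overlapped between groups. UBC7, the ubiquitin-conjugating enzyme of the pathway, was at 12.07, 12.55 and 12.03 in GAL-YRA1Δi cells, against 12.10, 12.49 and 12.12 in GAL-YRA1 cells, so that replicate number and not plasmid parted its values (change -0.02, adjusted p = 0.967).

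**Figure D2:**
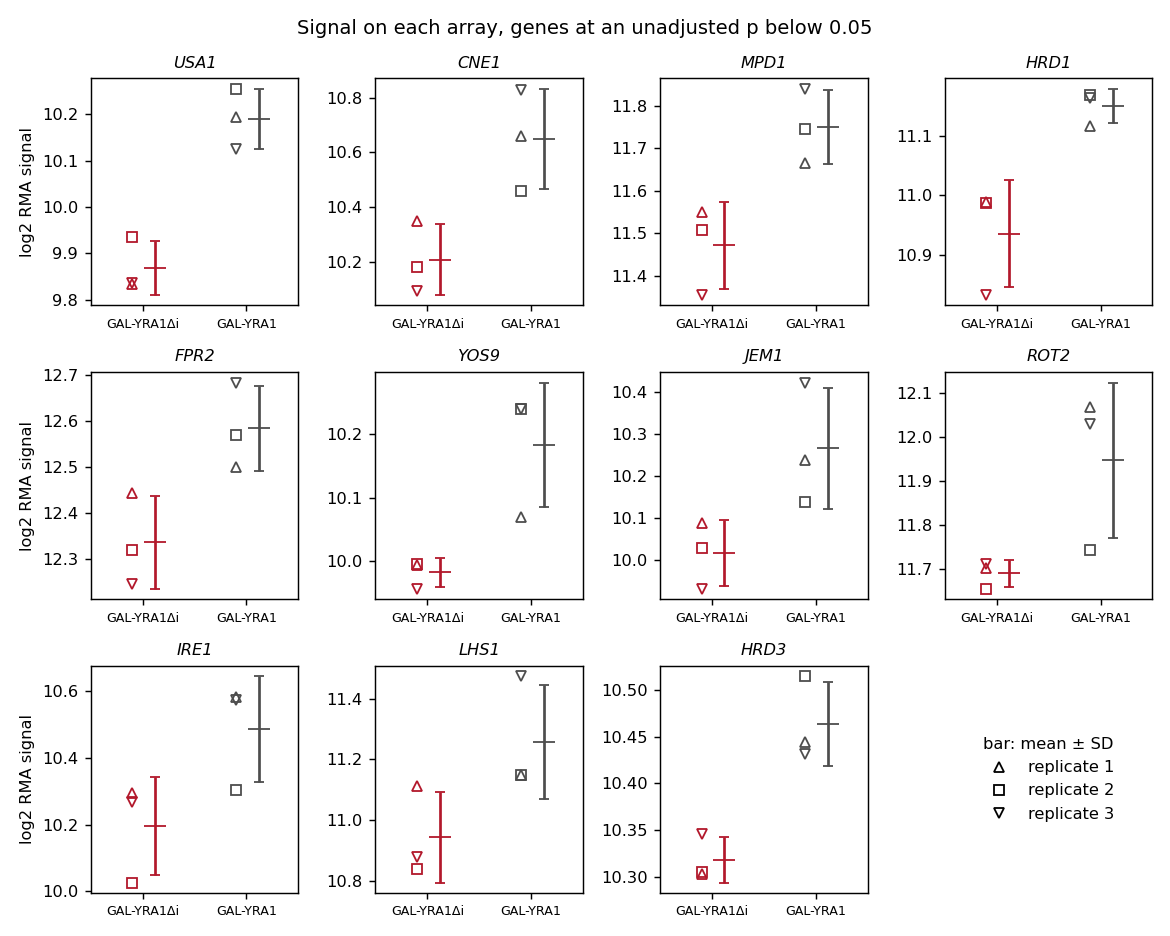
Log2 RMA signal on each array for the 11 genes at an unadjusted p below 0.05, with GAL-YRA1Δi cells at left and GAL-YRA1 cells at right; symbols are the replicates and bars the mean ± SD (n = 3). In each of the 11 panels, whose vertical axes differ and do not start at 0, all GAL-YRA1Δi arrays lie below all GAL-YRA1 arrays, narrowly for IRE1, LHS1 and ROT2 and by the widest margin relative to the spread for USA1.

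The groups overlapped for all 7 translocon genes. SEC61, the channel itself, was at 13.89, 13.50 and 13.78 in GAL-YRA1Δi cells, against 13.83, 13.52 and 13.83 in GAL-YRA1 cells. Replicate 2 was the lowest array of each group, and the mean difference was -0.0049 with an interval of -0.34 to 0.33. SSS1, the small gamma subunit, was at 13.14, 13.48 and 13.13 in GAL-YRA1Δi cells, against 13.07, 13.48 and 13.12 in GAL-YRA1 cells, with replicate 2 the highest of each group (change 0.02, interval -0.34 to 0.38). SBH1, the beta subunit, differed by -0.03. Of the genes for the channel's post-translational partners, SEC62 differed by -0.01, SEC63 by -0.11, SEC66 by -0.07 and SEC72 by 0.01. Adjusted p over the 7 genes was 0.587 or above. The narrowest interval, that of SEC72, was -0.15 to 0.17, so that differences within that range cannot be told from 0 here.

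All 5 oligosaccharyltransferase genes had small negative changes, from -0.11 to -0.05. STT3, the catalytic subunit, was at 12.35, 12.35 and 12.29 in GAL-YRA1Δi cells, against 12.48, 12.42 and 12.38 in GAL-YRA1 cells. It was the single gene of this enzyme whose groups did not overlap (change -0.10, 95% confidence interval -0.25 to 0.05, adjusted p = 0.517). OST3 and SWP1 differed by -0.11 each, WBP1 by -0.07 and OST1 by -0.05, and their groups overlapped.

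UPR targets were then set against translocon and glycosylation genes. The group of 15 UPR targets (KAR2, PDI1, ERO1, FPR2, EUG1, MPD1, MPD2, LHS1, SCJ1, JEM1, DER1, HRD1, HRD3, SIL1 and HAC1) had a median change of -0.18, with 6 genes lower at an unadjusted p below 0.05. The 12 translocon and oligosaccharyltransferase genes had a median of -0.06, with 0 genes lower at that level. Over all tested probe sets 6.31% were lower at that level, so 0 of 12 genes is near that share. The difference between the 2 medians was -0.12, and it was -0.05, -0.21 and -0.27 in pairs 1, 2 and 3. Hence the difference had the same sign in each pair as numbered in the titles, and was smallest in the first. The arrays do not tell pair 1 from pair 3, so the contrast between these pairs rests on the titles. The remaining 10 quality control genes (IRE1, USA1, YOS9, CNE1, EPS1, CUE1, UBC7, DFM1, ROT1 and ROT2) were not in the UPR target group. They had a median of -0.20 with 5 genes lower, to be read against the same 6.31%. Their median was as low as that of the UPR targets, so the lower signals were shared by quality control genes inside and outside the target group. No p is given for these medians, because the lists were chosen with earlier results of these arrays known.

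With arrays paired by the replicate numbers in their titles, the size of the differences varied between pairs. In their deviations from the group means, replicates 1 and 3 correlated more strongly across numbers (0.58 and 0.66) than within them (0.34 and 0.30). The contrast between pairs 1 and 3 thus rests on the titles alone. Over the 15 UPR targets the median was -0.03 in pair 1, -0.21 in pair 2 and -0.43 in pair 3, with 10, 14 and 14 genes negative. Over the 12 translocon and oligosaccharyltransferase genes it was 0.01, -0.0012 and -0.16, with 4, 6 and 11 genes negative. Over all tested probe sets the medians of the pairs were 0.01, 0.01 and 0.01. GAL-YRA1 replicate 3 carried the highest signal of the 6 arrays for 26 of the 37 genes. The share of all tested probe sets highest on that array is not given here, so this count is not set against a background. Without that array 3 genes (MPD1, USA1 and CNE1) were lower at an unadjusted p below 0.05 in limma, against 4.93% of all tested probe sets, and the median of the UPR targets was -0.15. Without GAL-YRA1Δi replicate 3, only USA1 and CNE1 were, against 3.44%. These were the 2 genes at that level under every alternative run.

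Replicate 2 moved many of the same genes in the 2 groups. Its signal was below the mean of replicates 1 and 3 in both groups for 23 of the 37 genes and above it in both for 8. In GAL-YRA1Δi and GAL-YRA1 cells its offset was -0.52 and -0.58 for HAC1, -0.40 and -0.38 for EUG1, -0.46 and -0.43 for ROT1 and -0.34 and -0.31 for SEC61. The genes above were led by UBC7 (0.50 and 0.38), SSS1 (0.34 and 0.38) and SBH1 (0.23 and 0.19). Across the 37 genes, which are not independent replicates, the offsets of the 2 groups correlated at 0.80 (Pearson). Over all tested probe sets the replicate 2 deviations of the 2 groups correlated at 0.69, so the shared offset was not particular to these genes. The shares of all tested probe sets to set beside the counts of 23 and 8 are not given here. For HAC1, EUG1, ROT1, SEC61, UBC7 and SSS1 the offset of replicate 2 was thus larger than the change between the groups, and what set these 2 cultures apart was not tested. With both replicate 2 arrays left out, 9 of the 37 genes (24.3%) were lower at an unadjusted p below 0.05, against 14.5% of all tested probe sets. IRE1, USA1 and ROT2 then had an adjusted p below 0.05 (0.034, 0.033 and 0.028), each with a change under 1.5-fold. The share of all tested probe sets at that adjusted level without these arrays is not given here.

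Other genes of the secretory pathway, in 8 lists with 81 measured genes, did not all lie on the same side. Over these 81 genes the median change was -0.06, with 10 genes (12.3%) lower and 7 higher at an unadjusted p below 0.05, where 6.31% of all tested probe sets were lower and 9.79% higher, and 0 of them had an adjusted p below 0.05 in limma (lowest 0.0676). With both replicate 2 arrays left out, 7 of them had one, namely UFD1 (0.00847), PTC2 (0.0170), MNS1 (0.0175), CWH41 (0.0276), DSK2 (0.0341), GTB1 (0.0366) and SGT2 (0.0402). The share of all tested probe sets at that adjusted level without these arrays is not given here. The counts of the single lists at an unadjusted p below 0.05 rest on few genes. They are to be read against the shares of 6.31% and 9.79%. Glycan trimming stood lowest, with 3 of 4 genes lower and a median of -0.34. MNS1, the ER mannosidase that removes a mannose from the finished glycan, was at 9.70, 9.55 and 9.56 in GAL-YRA1Δi cells, against 10.24, 10.03 and 10.38 in GAL-YRA1 cells, with no overlap (change -0.62, SE 0.10, adjusted p = 0.0791, or 0.0464 with the replicate block). GTB1, the partner subunit of Rot2 in glucosidase II, was at 9.62, 9.60 and 9.59 in GAL-YRA1Δi cells, against 9.88, 10.03 and 9.90 in GAL-YRA1 cells (change -0.33, adjusted p = 0.0959). CWH41, glucosidase I, was at 10.95, 10.93 and 10.84 in GAL-YRA1Δi cells, against 11.36, 11.09 and 11.29 in GAL-YRA1 cells (change -0.34, adjusted p = 0.157). The ERAD mannosidase gene HTM1 (MNL1 on the platform) differed by 0.05. Together with ROT2, then, the genes for both subunits of glucosidase II, for glucosidase I and for the ER mannosidase had every GAL-YRA1Δi value below every GAL-YRA1 value. The same held for 8.57% of all tested probe sets, and not for HTM1, whose groups overlapped. These genes were put together with their values known.

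The 13 further ERAD genes were mixed. Their median was 0.10, with 4 higher (UFD1, DSK2, NPL4 and RAD23) and 2 lower (ASI1 and ASI2) at an unadjusted p below 0.05. UFD1, a cofactor of the Cdc48 ATPase that pulls substrates out of the membrane, was at 10.68, 10.56 and 10.61 in GAL-YRA1Δi cells, against 9.99, 10.25 and 9.96 in GAL-YRA1 cells. Its groups did not overlap and replicate 2 showed the smallest difference (change 0.55, SE 0.10, adjusted p = 0.0796). With both replicate 2 arrays left out the change was 0.67, past the threshold of the methods (adjusted p = 0.00847 in limma). DSK2, which encodes a ubiquitin receptor that delivers substrates to the proteasome, was at 12.99, 13.00 and 12.93 in GAL-YRA1Δi cells, against 12.66, 12.71 and 12.64 in GAL-YRA1 cells (change 0.30, SE 0.06, adjusted p = 0.0959).

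The lists of targeting and of glycan assembly gave smaller values. Of 8 genes of the signal recognition particle and its receptor, which bring ribosomes to the ER, 2 were higher (SRP68 by 0.22, adjusted p = 0.142, and SEC65 by 0.15, adjusted p = 0.294) and 0 lower, with a median of 0.06. Of 15 genes for the lipid-linked oligosaccharide 2 were lower (ALG7, which starts its synthesis, by -0.28, and ALG6, a glucosyltransferase, by -0.22), with a median of -0.12. With the replicate block 3 of these 15 were lower, where 10.8% of all tested probe sets were lower. Of 6 signal peptidase and second translocon genes and of 4 other oligosaccharyltransferase genes 0 were lower and 0 higher (medians -0.08 and -0.09). In these lists the 2 lowest p belonged to SBH2 (-0.21) and SEC11 (-0.14), and to OST6 (-0.14) and OST5 (-0.09). Among 12 genes for the insertion of membrane proteins SGT2 was higher by 0.25 and 0 were lower, EMC3 differed by -0.26, and the median was 0.01. EMC3 was lower at an unadjusted p below 0.05 with the replicate block (adjusted p = 0.160 in limma). Among 19 genes of ER exit and UPR accessory functions 3 were lower, PTC2, the Golgi calcium pump gene PMR1 (-0.22) and the ER exit site gene SEC16 (-0.23), and the median was -0.09.

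**Figure D3:**
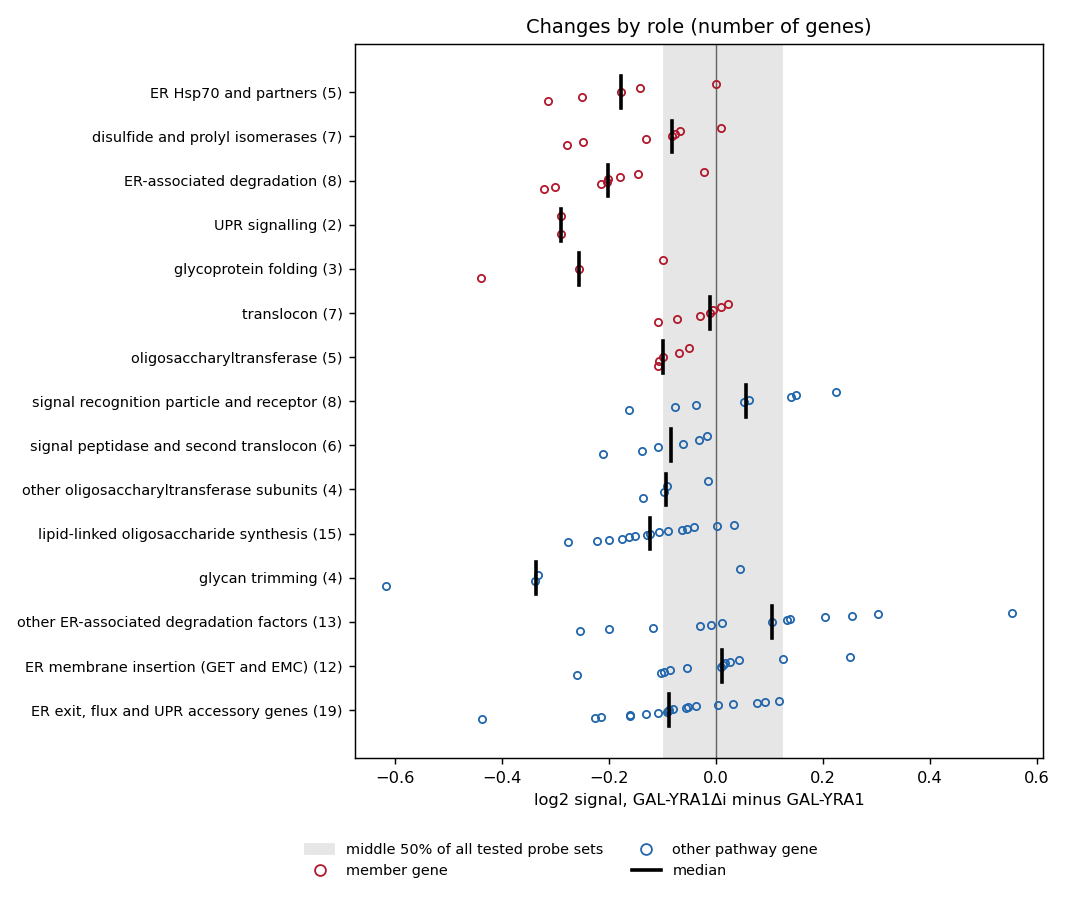
Log2 changes, GAL-YRA1Δi minus GAL-YRA1, of the 37 genes by role (red) and of the 81 other pathway genes by list (blue), with a black line at each median, the number of genes in brackets and a grey band for the quartiles of all tested probe sets. Glycan trimming (median -0.34), UPR signalling (-0.29) and glycoprotein folding (-0.26) lie furthest left, the translocon (-0.01) lies at 0, and the further ERAD factors (0.10) lie to the right.

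**Figure D4:**
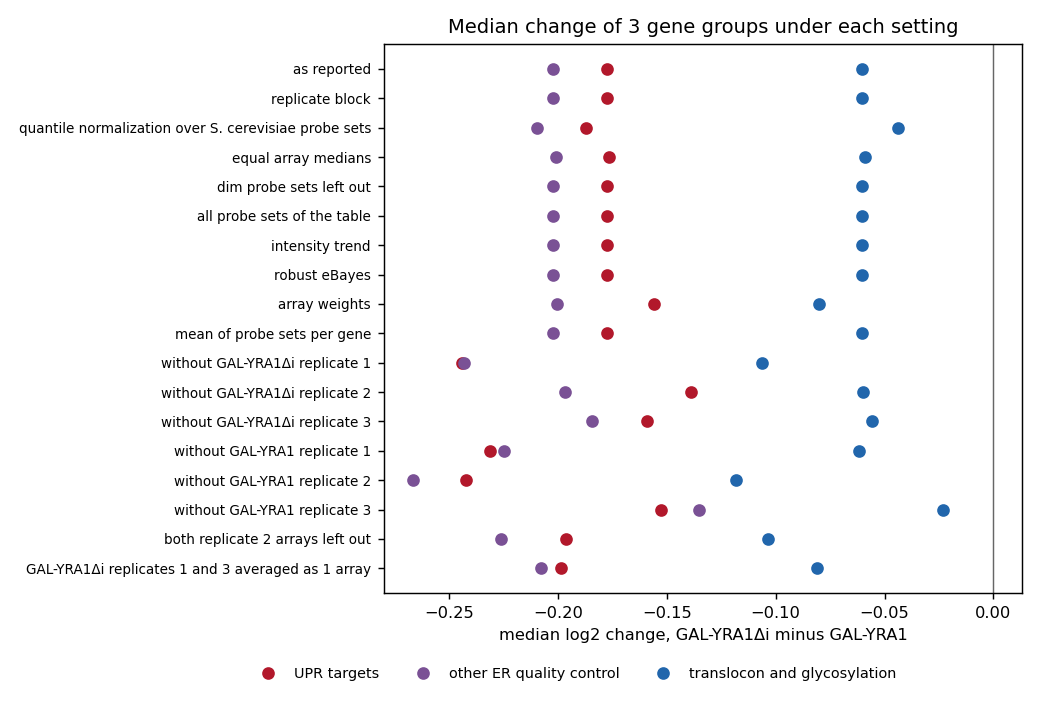
Median log2 change, GAL-YRA1Δi minus GAL-YRA1, of the 15 UPR targets, the 10 other ER quality control genes and the 12 translocon and glycosylation genes, as reported and under each of 17 alternatives. All points are negative, and in every row the translocon and glycosylation genes lie nearest to 0.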

How the data were processed

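The authors deposited 1 table of log2 RMA values for 10928 probe sets on 6 Affymetrix Yeast Genome 2.0 arrays. Per the labels and methods, RMA and limma were used, and versions and genome build are not given in the sources used here. RMA gives all arrays alike distributions and thereby hides any shift common to most mRNAs. Precision is limited by there being only 6 arrays. Probe sets were named by the platform annotation, and 5498 that matched 1 gene of the RefSeq R64 gene table (used for names only) were tested unfiltered. For genes with several probe sets the brightest was used. Groups, taken from the titles, were compared by lmFit and eBayes of limma 3.58.1, run in R 4.3.3 with group as the only term, with Benjamini-Hochberg adjustment over all tested probe sets, and the fit was tested on simulated data.

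Same-numbered arrays deviated together from their group means over the tested probe sets (correlations of 0.34, 0.69 and 0.30 for numbers 1, 2 and 3), so the numbers were treated as pairs. Replicates 1 and 3 correlated more strongly across numbers, at 0.58 for GAL-YRA1Δi replicate 1 with GAL-YRA1 replicate 3 and 0.66 for GAL-YRA1Δi replicate 3 with GAL-YRA1 replicate 1, and each of them correlated negatively with replicate 2 of the other group (-0.64 to -0.49). The deviations thus part replicate 2 from 1 and 3, and do not tell pair 1 from pair 3, whose values rest on the numbers in the titles. Values with a replicate block are given where they differ in call.

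The members and the lists were chosen with earlier results of these data known. Array values are given for genes at an unadjusted p below 0.05, genes with no overlap and IRE1, HAC1 and KAR2, and others were added after their values were seen. Of the other pathway lists, genes at an unadjusted p below 0.01 or with the 2 lowest p were named (SEC16 and HTM1 were added after their values were seen). The alternatives were the replicate block, other normalizations, filters, variance models and probe set choices, and leaving out or averaging arrays.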

Additional observations from a re-analysis of the deposited data

How the results depend on the processing

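Under the 17 alternatives 0 of the 37 genes passed the threshold of the methods or an adjusted p below 0.05 with 1.5-fold, while 5 had an adjusted p below 0.05 with array weights and 3 without both replicate 2 arrays. The shares of all tested probe sets at that adjusted level in these settings are not given here, so neither count is set against a background. The count at an unadjusted p below 0.05 was 11 as reported and with the replicate block, and 2 to 10 with 1 array left out. With GAL-YRA1Δi replicates 1 and 3 averaged as 1 array it was 4, and otherwise 9 to 15. The share of all tested probe sets lower at that level moved too. It was 6.31% as reported, 10.8% with the block and 14.5% with both replicate 2 arrays left out. With 1 replicate 3 array left out it was 3.44% (GAL-YRA1Δi) or 4.93% (GAL-YRA1). For the other alternatives, among them array weights (15 genes) and averaging, this share is not given here. Their counts are therefore not set against a background. Under the replicate block HAC1 entered and HRD3 left these 11 genes, PTC2 and MNS1 had an adjusted p below 0.05, and the adjusted p of the 37 genes and YRA1 stayed on the same side of 0.05. The medians stayed negative, from -0.24 to -0.14 for the UPR targets, -0.27 to -0.14 for the other quality control genes and -0.12 to -0.02 for translocon and glycosylation, and the difference between UPR targets and translocon genes from -0.17 to -0.08. YRA1 passed the threshold of the methods at 1.20 with dim probe sets left out, all probe sets tested, an intensity trend or means per gene, at 1.13 with array weights, at 1.09 without both replicate 2 arrays and without GAL-YRA1Δi replicate 2. With 1 array left out it was 1.14 to 1.25, and its adjusted p was above 0.05 without GAL-YRA1Δi replicate 1 (0.109) or 3 (0.112), without GAL-YRA1 replicate 1 (0.0989) or 3 (0.0802), and with GAL-YRA1Δi replicates 1 and 3 averaged (0.110). Of the 37 genes, 24 kept their sign throughout, and 13, with changes as reported of -0.13 to 0.02, did not. KAR2 was 0.034 with quantile normalization, 0.00097 with equal medians, 0.032 with array weights and 0.044 without both replicate 2 arrays. SEC61 was 0.010, 0.0098 and 0.0047 with quantile normalization, with array weights and without both replicate 2 arrays, and SEC62 0.011 with quantile normalization. With the 2 arrays averaged ERO1 was -0.099, UBC7 0.061 and SBH1 0.0099. With 1 array left out the ranges were -0.043 to 0.056 for KAR2, -0.14 to 0.23 for ERO1, -0.26 to 0.0030 for EUG1, -0.18 to 0.0032 for MPD2, -0.19 to 0.10 for UBC7, -0.11 to 0.11 for SEC61, -0.044 to 0.047 for SEC62, -0.16 to 0.022 for SEC66, -0.030 to 0.041 for SEC72, -0.11 to 0.034 for SBH1, -0.091 to 0.15 for SSS1, -0.24 to 0.055 for ROT1 and -0.16 to 0.034 for OST1. The cause of these moves was not tested.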

Other observations

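The genes that build the lipid-linked oligosaccharide were the list whose count moved most with replicate 2. With both replicate 2 arrays left out, 7 of 15 were lower in GAL-YRA1Δi cells at an unadjusted p below 0.05 in limma, against 14.5% of all tested probe sets, while with all arrays 2 of 15 were lower, against 6.31%. Their median was -0.16 without and -0.12 with these arrays. Over the pairs it was -0.08, 0.0088 and -0.23, with 12, 7 and 15 of the 15 genes negative. The part that the cultures of replicate 2 play in this was not tested.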
